A study of Mus musculus with 2 samples.

Results

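The 34 genes described here encode the machinery that takes glucose into the cell, breaks it down to pyruvate, exchanges lactate across the membrane, and adjusts these steps to oxygen. They were chosen by name and function, by a rule that uses no measured value but with earlier results of these data known, and all 34 were among the 24091 genes with a deposited value. Levels are given as FPKM, the number of fragments divided by gene length in kilobases and by the library total in units of 1000000. A level of 1 FPKM or more in 1 or both libraries, the filter used throughout, was reached by 32 of the genes, and Slc2a4 and Aldoc stayed below it. The data comprised 2 libraries of polyadenylated RNA from C57BL/6 mice, 1 labelled no radiation and 1 labelled radiation, and both sample titles also name PBS without saying what it was given for. Irradiated mice received pelvic radiation, given in the labels as 7.5 Gy and 5 days, and the other mice were sham-irradiated (the sham library below). Gonadal fat was taken 2 months later and dissociated with collagenase, and the floating fraction was kept in culture for 3 days before RNA was extracted, so the values describe cultured cells and not the fat pad itself. The age and sex of the mice, and how many contributed to each library, are not stated in the sources used here. Each condition had a single library and hence no replicate, so no test between conditions was possible, and every comparison below is between these 2 libraries.

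In glycolysis, each glucose is phosphorylated, split into 3-carbon sugars at the cost of ATP, and then oxidised to pyruvate in a payoff phase that returns more ATP than was spent. Pyruvate is either reduced to lactate by lactate dehydrogenase and exported by monocarboxylate transporters, or it enters the mitochondrion, where the pyruvate dehydrogenase complex converts it to acetyl-CoA. Pyruvate dehydrogenase kinases switch that complex off. When oxygen is low, the prolyl hydroxylases of the EGLN family stop marking HIF1A and EPAS1 for destruction. HIF1A in particular then raises the transcription of many glycolytic genes. In fat, insulin increases glucose uptake by moving the transporter GLUT4, the product of Slc2a4, to the surface of adipocytes.

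The libraries held 30600000 fragments (sham) and 35000000 fragments (irradiated), as recovered from the steps between low values, and a gene of 1 kb with no fragments could have an FPKM of up to 0.098 and 0.0857, respectively. Most defining genes of mature adipocytes were at low levels. Of 12 such markers, 9 did not pass the filter in either library, Adipoq had 5 and 10 fragments, and Lep had 0 and 2. The 3 that passed were Cebpa, with an FPKM of 13.45 in the sham and 14.42 in the irradiated library, Pnpla2 (5.105 and 5.756), and Pparg (4.591 and 4.69). The summed FPKM of the adipocyte markers was 25.7 in the sham and 28.25 in the irradiated library, while 8 fibroblast and progenitor markers summed to 3606 and 2894, 9 macrophage markers to 583 and 621, 8 mesothelial markers to 34.5 and 49.5, and 7 endothelial markers to 41.7 and 45.2. The labelled cell type, primary adipocytes, was therefore not borne out by 9 of its 12 markers, and markers of several other cell types were present. In bulk RNA, fewer cells of a type and less RNA per cell cannot be told apart. The fibroblast sum consisted mostly of Col1a1 (1937 and 1428) and Col3a1 (873.0 and 694.5), and the macrophage sum of Lyz2 (442.5 and 410.0). Of the 8 fibroblast markers, 6 were lower in the irradiated library, while Dcn (548.6 and 552.5) and Lum (35.9 and 36.15) were slightly higher. The sums therefore follow a few abundant genes and do not measure cell content.

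All 14 enzyme genes from hexokinase to pyruvate kinase that passed the filter differed by less than 0.25 on the log2(FPKM + 0.1) scale, the scale of all differences below (irradiated minus sham), beside 80.2% of all genes that passed the filter. For 9 of the 14 the difference was larger than counting error, as defined below, with 6 lower and 3 higher. Rounding of the deposited values can shift a difference by up to 0.01. This could take the intervals of Pkm (-0.037 to -0.003) and Eno2 (0.007 to 0.451) across 0. Counts of intervals below include Pkm and, over the 32 genes, Eno2. The lactate transporter Slc16a1, the transcription factor Hif1a, the kinase Pdk1, and the mitochondrial receptor Bnip3 were lower in the irradiated library by 0.43 to 0.49. The kinases Pdk4 and Pdk2, the regulatory enzyme Pfkfb4, and the carbonic anhydrase Car9 were higher by 0.45 to 1.40, all from levels under an FPKM of 3 in the sham library. Over the 32 genes the median difference was -0.025, beside 0.02 over all 11253 genes that reached an FPKM of 1. Of the 32 genes, 12 were higher and 20 lower, and of the 11253, 6020 were higher and 4947 lower. The mean difference of the 32 genes had the opposite sign to their median, 0.0213.

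**Figure D1:**
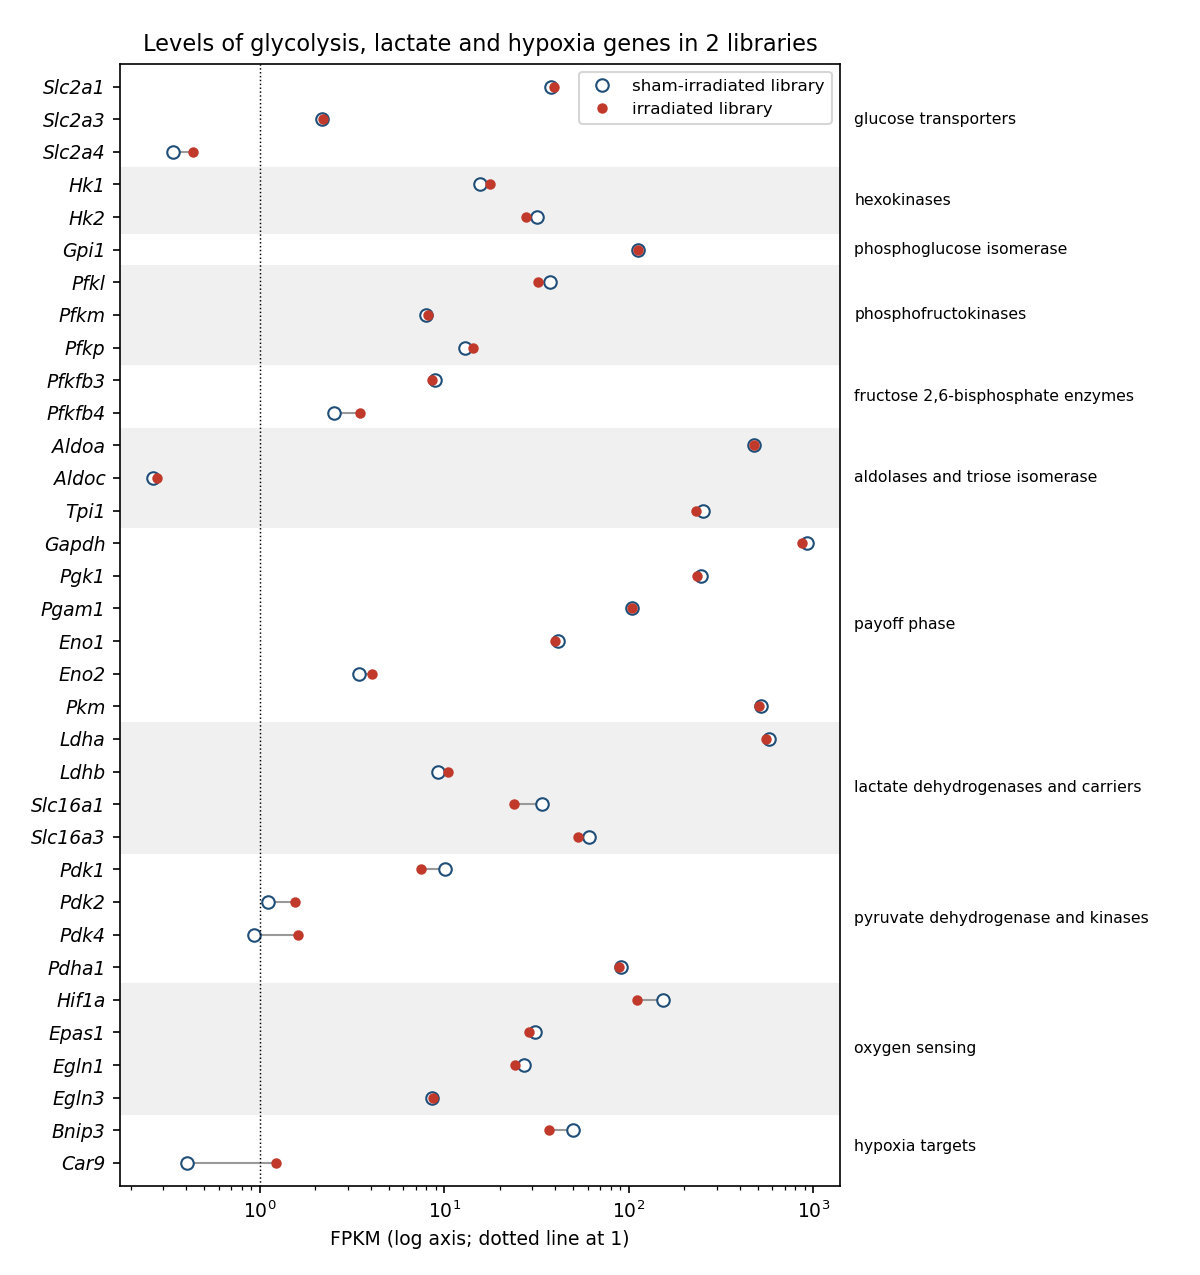
FPKM of each of the 34 genes on a log axis, ordered by role from glucose uptake to hypoxia targets, with an open circle for the sham library and a filled circle for the irradiated library (1 library each, no error bars). The circles nearly coincide for Gpi1, Aldoa, Pgam1, and Pkm, and wide gaps are seen for Car9, Pdk4, Pdk2, Slc16a1, Hif1a, and Pfkfb4.

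Of the 32 genes, 2 were higher by at least 0.5 (Pdk4 and Car9), where 4.31% of all genes kept were, and 0 were lower by at least 0.5, where 1.44% were. Pdk4 and Car9 passed the filter only through the irradiated library, where they were higher, so their count supports nothing about the list, and with a filter of 5 FPKM it was 0. Slc16a1 and Hif1a lay just inside this limit, and centring on the median difference of all genes, which shifts every value by -0.02, placed both past it. At a limit of 0.25, 4 of 32 were higher beside 13.8% of all genes, and 4 of 32 were lower beside 6.04%. Car9 was the 1 gene past a difference of 1, where 1.16% of all genes were. Of the 32 genes, 24 differed by less than 0.25, a share near that of all genes. For each gene an exact 95% interval was computed from the ratio of its fragments. This interval covers counting error only, not the variation between mice or cultures. It lay above 0 for 7 of the 32 genes, beside 23.8% of all genes, and below 0 for 14 of 32, beside 17.5%. The members were sequenced more deeply than most genes, with a median of 3896 fragments in the sham library against 888, which narrows their intervals. Among genes with at least 1000 fragments in that library, a limit set after the values were seen, the interval lay below 0 for 14 of 23 members (60.9%) and for 27.6% of all 5222 genes, and above 0 for 2 of 23 (8.7%) and for 25.1%. The members in this range were still more deeply counted, with a median of 5066 fragments against 2320.

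**Figure D2:**
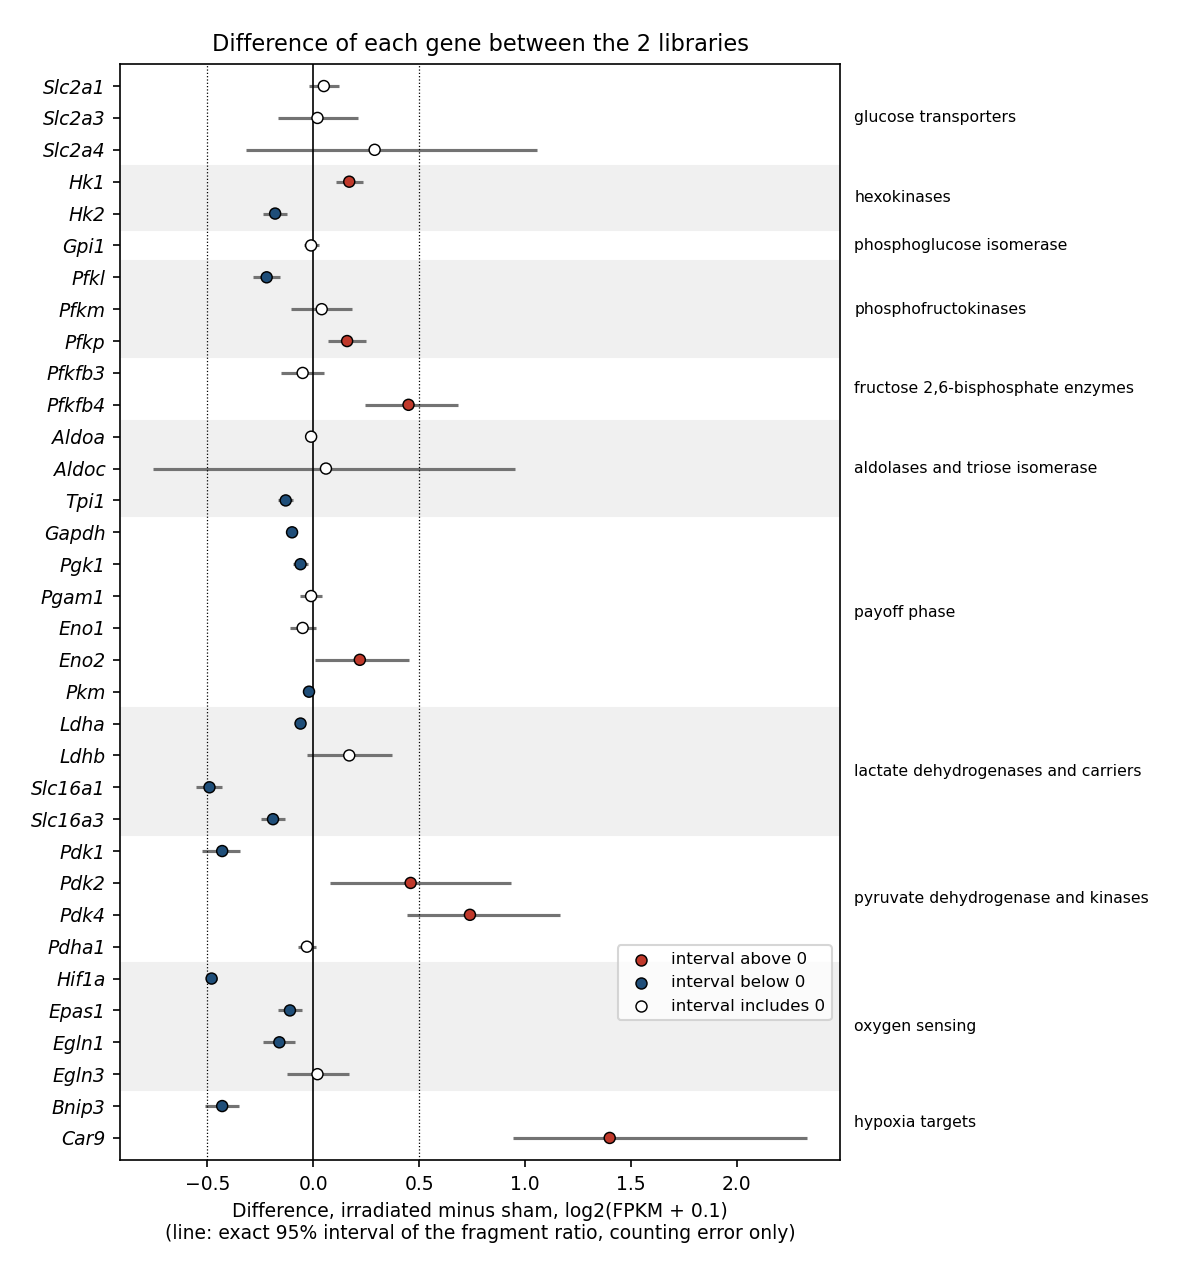
Difference of each gene on the log2(FPKM + 0.1) scale, with the exact 95% interval of its fragment ratio as a line (counting error only) and dotted lines at -0.5 and 0.5. Hif1a, Slc16a1, Pdk1, and Bnip3 sit together between -0.49 and -0.43 with short intervals, and Car9 stands alone at 1.40 with a long interval.

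Glucose transporters were the entry point. Slc2a1, which encodes GLUT1, the basal glucose transporter of most cells, had an FPKM of 37.95 in the sham and 39.3 in the irradiated library, a difference of 0.05 with an interval from -0.02 to 0.12. Slc2a3, the high-affinity transporter GLUT3 known from neurons and leukocytes, had 2.17 and 2.20. Both differences were within counting error, and Slc2a1 was 17.5 and 17.9 times as abundant per length as Slc2a3. The insulin-responsive transporter gene Slc2a4 had 0.338 and 0.436, on 32 and 47 fragments, and its interval from -0.32 to 1.06 was too wide to show a difference at this depth. Slc2a1 was thus the most abundant of the 3 transporter genes per length in both libraries. Slc2a4 stayed below the filter, as did 9 of the 12 adipocyte markers.

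Hexokinase, which traps glucose as glucose 6-phosphate, showed opposite differences of its forms. Hk2, the inducible form of insulin-sensitive and proliferating tissues, had an FPKM of 31.7 in the sham and 27.95 in the irradiated library, a difference of -0.18 (interval -0.24 to -0.13). Hk1, the widely expressed form, had 15.7 and 17.65, a difference of 0.17 (interval 0.11 to 0.23). Hk2 exceeded Hk1 in both libraries, by 2.02 times (interval 1.94 to 2.11) in the sham and 1.58 times (1.52 to 1.65) in the irradiated library. The summed FPKM of the pair moved from 47.4 to 45.6, so the balance between the forms differed more than their total. Hk3, a form typical of myeloid cells and not among the 34 genes, had 6.54 and 9.61, a difference of 0.55 (interval 0.42 to 0.70). With Hk3 included, the summed FPKM was 53.9 in the sham and 55.2 in the irradiated library, the opposite direction to the sum of the pair. Of 9 macrophage markers, 7 were higher in the irradiated library, beside 6020 of all 11253 genes kept. Their median difference was 0.44. Their intervals lay above 0 for 6 and below for 1, beside 23.8% and 17.5% of all genes. They ran from -0.11 for Lyz2, the marker with the highest FPKM (442.5 and 410.0), to 0.80 for C1qa and C1qc. The part of the macrophage markers in the Hk3 value was not tested. Gpi1, which isomerises the hexokinase product, had 112.9 and 112.1 and differed by -0.01.

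Phosphofructokinase catalyses the committed step of the pathway, and its subunits again differed in opposite directions. Pfkl, named for liver, had an FPKM of 37.7 in the sham and 32.35 in the irradiated library, a difference of -0.22 (interval -0.28 to -0.16). Pfkp, named for platelets, had 12.9 and 14.4, a difference of 0.16 (interval 0.07 to 0.25), and Pfkm, the muscle form, had 7.96 and 8.18, within counting error. The order Pfkl, Pfkp, Pfkm held in both libraries, with Pfkl at 2.92 times Pfkp (interval 2.77 to 3.09) and 2.24 times Pfkp (2.13 to 2.36), respectively. Pfkp overlaps Pitrm1 on the opposite strand, at an FPKM of 48.4 and 47.1, and Pfkm likewise overlaps Senp1, at 6.35 and 6.18. Whether strand was used in counting is not stated in the sources used here, so the levels of Pfkp and Pfkm are uncertain. The bifunctional enzymes that make and remove the allosteric activator of phosphofructokinase are encoded by Pfkfb3, whose product strongly favours synthesis, and Pfkfb4. Pfkfb3 had 8.90 and 8.59, within counting error. Pfkfb4 had 2.54 and 3.51, on 282 and 445 fragments, a difference of 0.45 (interval 0.25 to 0.69). The irradiated library therefore held less Pfkfb3 for each Pfkfb4 transcript, 2.45 (interval 2.21 to 2.73) against 3.51 (3.09 to 4.00).

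The lower part of the pathway held the most abundant members. Aldoa, the aldolase that splits the 6-carbon sugar, had an FPKM of 480.9 and 477.6 (sham and irradiated, the order used for all pairs from here on), while Aldoc, the brain form, had 0.264 and 0.279 on 23 and 28 fragments. Triose phosphate isomerase, Tpi1, had 254.1 and 232.2, a difference of -0.13 (interval -0.17 to -0.09). In the payoff phase, Gapdh had 929.2 and 867.0, a difference of -0.10 (interval -0.12 to -0.08), and Pgk1, the X-linked phosphoglycerate kinase that makes the first ATP, had 245.5 and 235.5. Pgam1, the mutase that follows it, had 104.6 and 103.9. Among enolases, the ubiquitous Eno1 had 41.5 and 40.1 and the neuronal form Eno2 had 3.46 and 4.04. Pkm, the pyruvate kinase of most tissues outside liver and red cells, had 519.0 and 511.9. The genes from Gapdh to Pkm differed by -0.10 to -0.01, except for Eno2 at 0.22 on 294 and 394 fragments (interval 0.01 to 0.45), and Aldoa and Aldoc by -0.01 and 0.06, both within counting error. Gapdh, often used as a reference transcript, was lower in the irradiated library by more than its counting error.

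Added over the 15 genes from hexokinase to pyruvate kinase, the FPKM was 2797 in the sham and 2685 in the irradiated library, a ratio of 0.96. Of the 14 that passed the filter, 10 were lower and 4 higher, beside 4947 lower and 6020 higher of all 11253 genes kept. Their median difference was -0.015. Levels of some of these genes are uncertain because processed copies share their sequence. The file lists 11 Gapdh pseudogenes with a summed FPKM of 6.95 and 7.89, a pair of Aldoa retrogenes with 2.26 and 2.36, an Ldha pseudogene with 0.495 and 0.348, and Eno1b, a near-identical copy of Eno1, with 0.52 and 0.455. How fragments that match both copies were counted is not stated in the sources used here, and the level of Eno1 is therefore uncertain.

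Lactate genes were dominated by Ldha, whose product favours the reduction of pyruvate to lactate. Ldha had an FPKM of 579.9 and 556.3, a difference of -0.06 (interval -0.08 to -0.04), and Ldhb, the heart form that favours the reverse reaction, had 9.28 and 10.5, a difference of 0.17 (interval -0.03 to 0.37). Ldha made up 98.4% and 98.2% of the summed FPKM of the pair, so Ldhb was a minor form in both libraries.

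Slc16a1, on chromosome 3 from 104638664 to 104658462 (coordinates of genes are those of the file, mm10), encodes MCT1, a monocarboxylate transporter that moves lactate and pyruvate with a proton in either direction. Its FPKM was 33.7 in the sham and 23.98 in the irradiated library, on 4566 and 3715 fragments. The deeper library thus held fewer of its fragments, and the difference was -0.49 (interval -0.55 to -0.43). Of the 11253 genes kept, 172 (1.53%) had a difference as low or lower. Slc16a3, which encodes MCT4, the exporter typical of glycolytic cells, had 60.9 and 53.35, a difference of -0.19 (interval -0.25 to -0.13). Its gene overlaps Csnk1d on the opposite strand, at 29.8 and 29.1. MCT4 transcripts exceeded those of MCT1 by 1.81 times (interval 1.73 to 1.88) and 2.22 times (2.13 to 2.32), so both carriers were lower in the irradiated library and the balance lay further towards MCT4. Their chaperones at the membrane, Bsg and Emb, which are not among the 34 genes, were higher, Bsg with 182.2 and 207.8 (difference 0.19) and Emb with 11.9 and 14.02 (difference 0.24).

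Genes that govern the conversion of pyruvate to acetyl-CoA in the mitochondrion showed the widest spread of any role group of more than a pair of genes. Pdha1, the X-linked catalytic subunit of pyruvate dehydrogenase, had an FPKM of 90.4 and 88.55, within counting error. Its kinases differed in both directions. Pdk1, the kinase form best known as a HIF1A target, on chromosome 2 from 71873224 to 71903858, had 10.1 and 7.47, on 2200 and 1861 fragments, a difference of -0.43 (interval -0.53 to -0.35). Pdk4, the form induced by fasting and fatty acids, on chromosome 6 from 5483351 to 5496278, had 0.928 and 1.62, on 98 and 195 fragments, a difference of 0.74 (interval 0.44 to 1.16), and Pdk2, a widely expressed form, had 1.11 and 1.56, on 76 and 123 fragments, a difference of 0.46 (interval 0.08 to 0.93). With a pseudocount of 1, these differences were 0.44 for Pdk4 and 0.28 for Pdk2. For each Pdk4 transcript there were 10.9 Pdk1 transcripts per length (interval 8.86 to 13.4) in the sham and 4.61 (3.98 to 5.37) in the irradiated library. The kinase with the highest FPKM was neither of these but Pdk3, outside the 34 genes, with 25.2 and 23.2, which held 67.5% and 68.5% of the summed FPKM of the 4 kinase genes. That sum was 37.3 and 33.8, since the higher values of Pdk2 and Pdk4 added less than the lower values of Pdk1 and Pdk3 took away.

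**Figure D3:**
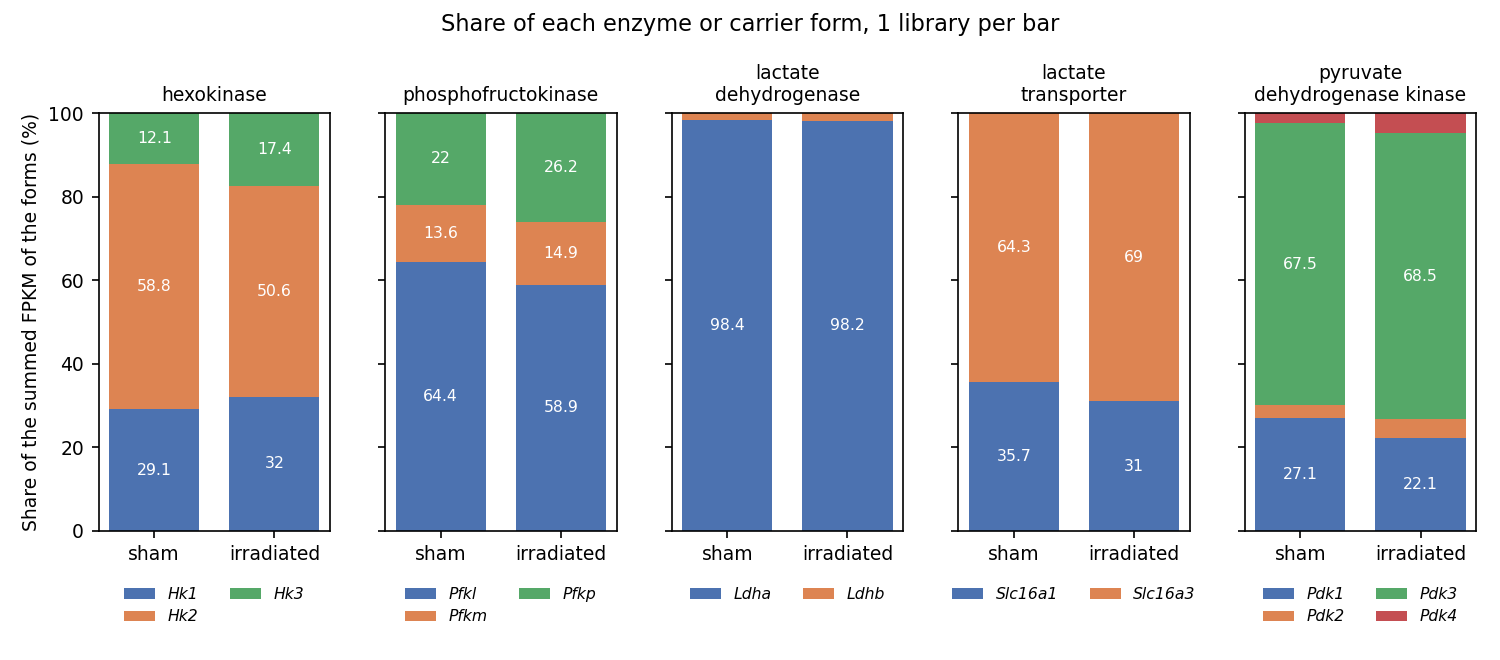
Share of the summed FPKM held by each form of hexokinase, phosphofructokinase, lactate dehydrogenase, lactate transporter, and pyruvate dehydrogenase kinase, with 1 bar per library and no error bars. The hexokinase sum includes Hk3, and the kinase sum includes Pdk3. Hk2 went from 58.8% to 50.6%, Pfkl from 64.4% to 58.9%, and Pdk1 from 27.1% to 22.1%, while Ldha held over 98% in both bars.

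Oxygen-sensing genes were lower at the level of the transcription factor. Hif1a, on chromosome 12 from 73901324 to 73947554, encodes the oxygen-labile subunit of HIF1. Its FPKM was 154.2 in the sham and 110.6 in the irradiated library, on 26181 and 21465 fragments, a difference of -0.48 (interval -0.51 to -0.45). This was the most precisely counted of the 4 genes that were lower by over 0.25, and 177 of 11253 genes (1.57%) were as low or lower. Epas1, its relative HIF2A, known for its role in endothelium and erythropoietin control, had 31.02 and 28.7, a difference of -0.11 (interval -0.17 to -0.06). Hif1a exceeded Epas1 by 4.97 times (interval 4.82 to 5.12) and 3.85 times (3.73 to 3.96). Egln1, the main oxygen-sensing hydroxylase, had 27.2 and 24.3, a difference of -0.16 (interval -0.24 to -0.09), and Egln3, a hydroxylase that HIF itself induces, had 8.59 and 8.72, within counting error. HIF1A is controlled mainly as a protein, which these data do not measure. Fibroblast and progenitor markers were also lower, with a median difference of -0.20 over 8 genes and 0 of them at 0 fragments, Pi16 lowest at -0.55 and Dcn highest at 0.01, and their part in the Hif1a value was not tested.

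The pair of hypoxia targets went opposite ways. Bnip3, on chromosome 7 from 138890836 to 138909506, encodes a receptor that marks mitochondria for autophagy, and it had an FPKM of 49.8 and 36.9, on 2665 and 2261 fragments, a difference of -0.43 (interval -0.51 to -0.35). Car9, on chromosome 4 from 43507026 to 43513725, encodes a carbonic anhydrase at the cell surface that handles acid outside the cell and is widely used as a marker of HIF1 activity. It had 0.404 and 1.23, on 24 and 84 fragments, a difference of 1.40 (interval of the fragment ratio 0.95 to 2.33), and it passed the filter only through the irradiated library, where it was high. The value rests on few fragments, and it was 0.67 with a pseudocount of 1. Mesothelial markers moved in the same direction as Car9, with 7 of 8 higher, beside 6020 of all 11253 genes kept. Their median difference was 1.255, with a range from -0.13 (Wt1) to 2.18 (Msln) and none at 0 fragments in either library. Like Car9, Msln, Upk3b, Krt19, and Krt18 passed the filter only through the irradiated library, where they were high. The part of the mesothelial markers in the Car9 value was not tested.

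Promoters are shown for the genes whose values opened or closed the range, to let the letters around the start of each be compared. They were taken from RefSeq, build GRCm38.p6, as the 250 bases before the start that RefSeq gives, 5′ to 3′ on the gene's strand, for 30 of the 34 genes. For 5 of these, none of them printed below, that start was 11 (Pfkl), 138 (Tpi1), 208 (Pkm), 583 (Slc16a3), and 694 bases (Gapdh) from the start in the file. The table held no window for Slc2a3, Slc2a4, and Epas1, and that of Hif1a lay over 1000 bases from the start of its gene model and was not used. Capitals mark the core of the hypoxia response element, ACGTG or GCGTG on either strand. A CACGTG, the E-box letters, holds this core on both strands and counts as a match on each. Of the genes that were lower by over 0.25, the windows of Slc16a1 (chr3:104638414-104638663, plus strand, 4 matches), Pdk1 (chr2:71872974-71873223, plus strand, 1 match), and Bnip3 (chr7:138909507-138909756, minus strand, 5 matches) follow. Pdk1 was added after its value was seen.
Slc16a1: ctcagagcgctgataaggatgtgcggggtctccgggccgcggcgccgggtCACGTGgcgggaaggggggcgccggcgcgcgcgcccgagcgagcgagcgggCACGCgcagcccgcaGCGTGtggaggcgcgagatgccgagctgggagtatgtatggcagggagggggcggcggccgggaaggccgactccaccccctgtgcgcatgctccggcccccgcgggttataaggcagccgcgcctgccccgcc
Pdk1: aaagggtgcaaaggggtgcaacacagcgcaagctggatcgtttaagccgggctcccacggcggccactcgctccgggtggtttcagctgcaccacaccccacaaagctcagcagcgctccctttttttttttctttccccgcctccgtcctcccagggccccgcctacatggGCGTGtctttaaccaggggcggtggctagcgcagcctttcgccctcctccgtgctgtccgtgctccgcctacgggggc
Bnip3: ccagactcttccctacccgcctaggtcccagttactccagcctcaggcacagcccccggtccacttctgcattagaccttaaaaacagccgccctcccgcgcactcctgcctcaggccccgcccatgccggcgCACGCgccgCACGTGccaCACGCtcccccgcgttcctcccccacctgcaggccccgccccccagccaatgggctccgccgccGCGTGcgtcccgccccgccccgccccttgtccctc

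The highest member, Car9 (chr4:43506776-43507025, plus strand, 1 match), and the pair tied for the highest difference among members at 5 FPKM or more, Hk1 (chr10:62379909-62380158, minus strand, 0 matches) and Ldhb (chr6:142507958-142508207, minus strand, 1 match), had these windows.
Car9: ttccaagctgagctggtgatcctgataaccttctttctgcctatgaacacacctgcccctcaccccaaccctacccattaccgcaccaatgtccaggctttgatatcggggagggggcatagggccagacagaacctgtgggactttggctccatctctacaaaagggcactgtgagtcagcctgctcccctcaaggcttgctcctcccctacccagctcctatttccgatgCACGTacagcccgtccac
Hk1: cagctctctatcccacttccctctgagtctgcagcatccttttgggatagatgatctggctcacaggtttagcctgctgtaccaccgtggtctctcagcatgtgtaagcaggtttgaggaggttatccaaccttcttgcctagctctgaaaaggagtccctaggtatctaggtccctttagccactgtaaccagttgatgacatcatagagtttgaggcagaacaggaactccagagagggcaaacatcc
Ldhb: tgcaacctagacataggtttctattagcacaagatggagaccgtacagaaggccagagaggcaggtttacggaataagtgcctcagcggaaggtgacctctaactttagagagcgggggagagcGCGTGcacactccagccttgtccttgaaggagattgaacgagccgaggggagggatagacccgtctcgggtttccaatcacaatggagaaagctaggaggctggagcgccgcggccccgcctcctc

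The hydroxylase genes Egln1 (chr8:124949255-124949504, minus strand, 2 matches) and Egln3 (chr12:54203875-54204124, minus strand, 1 match) are shown beside them as oxygen-sensing members that differed by -0.16 and 0.02.
Egln1: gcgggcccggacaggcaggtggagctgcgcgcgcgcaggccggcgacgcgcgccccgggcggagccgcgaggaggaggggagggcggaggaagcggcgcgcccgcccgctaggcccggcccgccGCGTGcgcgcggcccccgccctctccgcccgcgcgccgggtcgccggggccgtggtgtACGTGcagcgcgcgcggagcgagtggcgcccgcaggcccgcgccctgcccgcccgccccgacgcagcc
Egln3: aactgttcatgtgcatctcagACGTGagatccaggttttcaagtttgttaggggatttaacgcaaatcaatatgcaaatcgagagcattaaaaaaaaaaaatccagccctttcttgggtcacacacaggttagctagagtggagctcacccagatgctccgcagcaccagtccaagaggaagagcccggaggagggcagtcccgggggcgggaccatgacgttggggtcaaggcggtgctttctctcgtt

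At least 1 match was found in 24 of the 30 windows (80.0%), against 58.8% of the windows of 8448 genes that passed the filter and 45.1% of all 16796 windows. CACGTG was found in 5 of the 30 windows (16.7%), against 8.76% of the 8448. The median GC content was 62.0% in the windows of the members and 60.4% in those of the 8448 genes. Among the windows shown, GC content ran from 49.6% (Hk1) to 86.0% (Egln1), with 76.4% for Slc16a1, 72.4% for Bnip3, and 56.4% for Car9. Matches stood in windows of genes that were lower (Bnip3), higher (Car9), and within counting error of equal (Egln3).

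Neighbouring pathways were described from lists of other genes. Beside the counts of higher and lower genes in these lists, 6020 of all 11253 genes kept were higher and 4947 lower. Among 31 further genes of glycolysis and glucose uptake, 14 reached an FPKM of 1, of which 11 were higher and 3 lower, with a median difference of 0.135. Hk3 was highest at 0.55, and Slc2a10, a transporter of the endomembranes and a gene of arterial connective tissue disease, was lowest at -0.31 (5.29 and 4.25). Txnip, an inhibitor of glucose uptake that responds to glucose, was named after its value was seen and had 32.8 and 41.5, a difference of 0.34 (interval 0.27 to 0.41). Its relative Arrdc4, named likewise, had 7.31 and 8.18, a difference of 0.16. Of these 14 genes, 5 had an interval above 0, beside 23.8% of all genes, and 1 below, beside 17.5%. The median of the list was 0.01 with no filter and 0.08 with a filter of 5 FPKM.

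Among 27 further genes of pyruvate and lactate metabolism, 21 reached an FPKM of 1, with 12 higher, 9 lower, and a median difference of 0.03. The lowest was Pck2, the mitochondrial enzyme that makes phosphoenolpyruvate, with 26.1 and 16.9 on 3191 and 2370 fragments, a difference of -0.62 (interval -0.70 to -0.55), and the highest was Emb. The other subunits of the pyruvate dehydrogenase complex, Pdhb, Pdhx, Dlat, and Dld, differed by 0.01, 0.11, 0.10, and -0.04, respectively. These values lay within 0.11 of 0. The kinases among the 34 genes ran from -0.43 (Pdk1) to 0.74 (Pdk4), and Pdk3, in this further list, differed by -0.12. Pdk4 rests on 98 and 195 fragments and passed the filter only through the irradiated library, where it was high. The subunit with the fewest fragments, Pdhx, had 498 and 616, so depths were unlike.

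Further HIF factors and hypoxia-induced genes gave 26 genes above the filter, of which 10 were higher, 15 lower, and 1 equal, with a median difference of -0.05, 6 intervals above 0 and 9 below (23.8% and 17.5% of all genes, respectively). Stc2, a secreted glycoprotein, was lowest at -0.49 (2.89 and 2.03), and Pdgfb, a growth factor, was highest at 0.29 (2.87 and 3.53). Named after their values were seen, P4ha2, a collagen prolyl hydroxylase, differed by -0.45 (56.0 and 40.97), Car12, another surface carbonic anhydrase, by -0.44 (7.52 and 5.52), and Angptl4, a lipase inhibitor, by -0.34 (50.1 and 39.6). Vegfa, a classical HIF target, had 38.75 and 40.7 (difference 0.07), and P4ha1 had 130.6 and 124.4 (difference -0.07). The hypoxia-induced genes therefore did not share a direction, and Car9 and Car12, both surface carbonic anhydrases, differed in opposite directions.

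**Figure D4:**
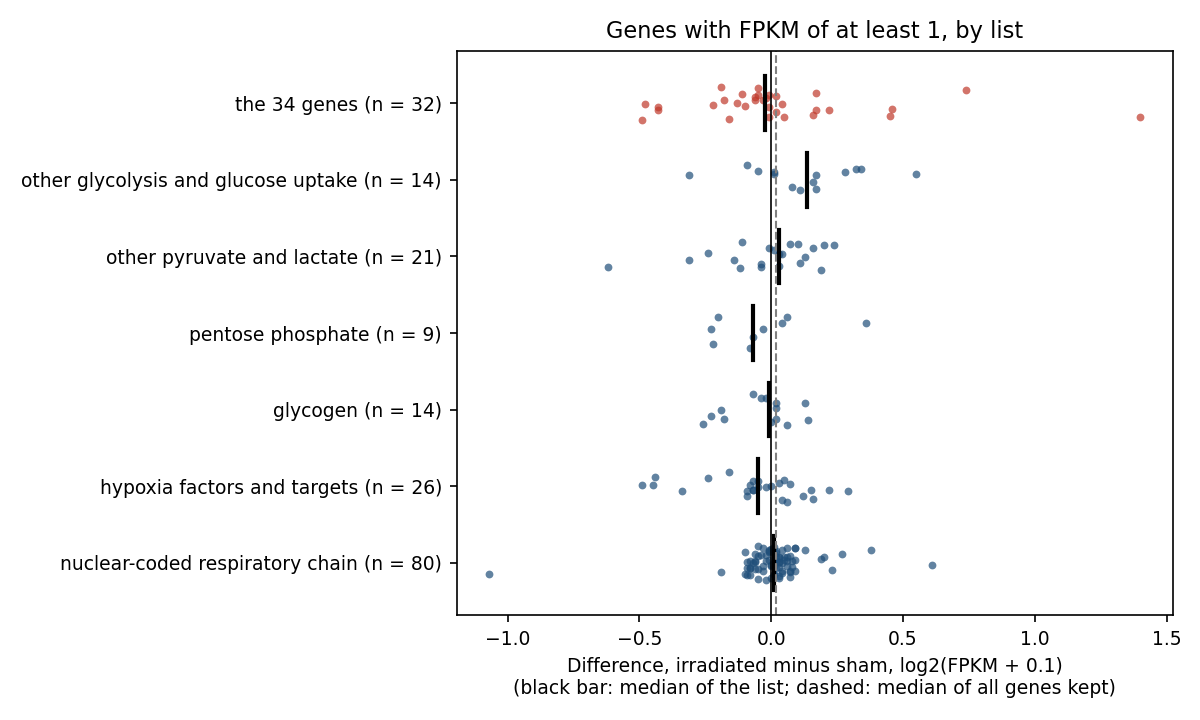
Difference of each gene that passed the filter, by list, with a black bar at the median of the list and a dashed line at the median of all genes kept, 0.02. Most of the 80 respiratory chain genes cluster around their median of 0.01, within a range from -1.07 to 0.61. The 32 genes described here spread from -0.49 to 1.40.

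Nuclear-coded genes of the respiratory chain, the alternative route for pyruvate, were set beside the 34 genes. Of 85 such genes, 80 reached an FPKM of 1, with a median difference of 0.01. Of these 80, 76 were within 0.25, beside 24 of 32 here and 80.2% of all genes kept. The share of the 32 genes was thus near that of all genes, and that of the respiratory chain genes was higher. The summed FPKM of the respiratory chain genes was 5708 and 5757, nearly equal in the libraries. That of the glycolytic enzymes was 2797 and 2685.

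**Figure D5:**
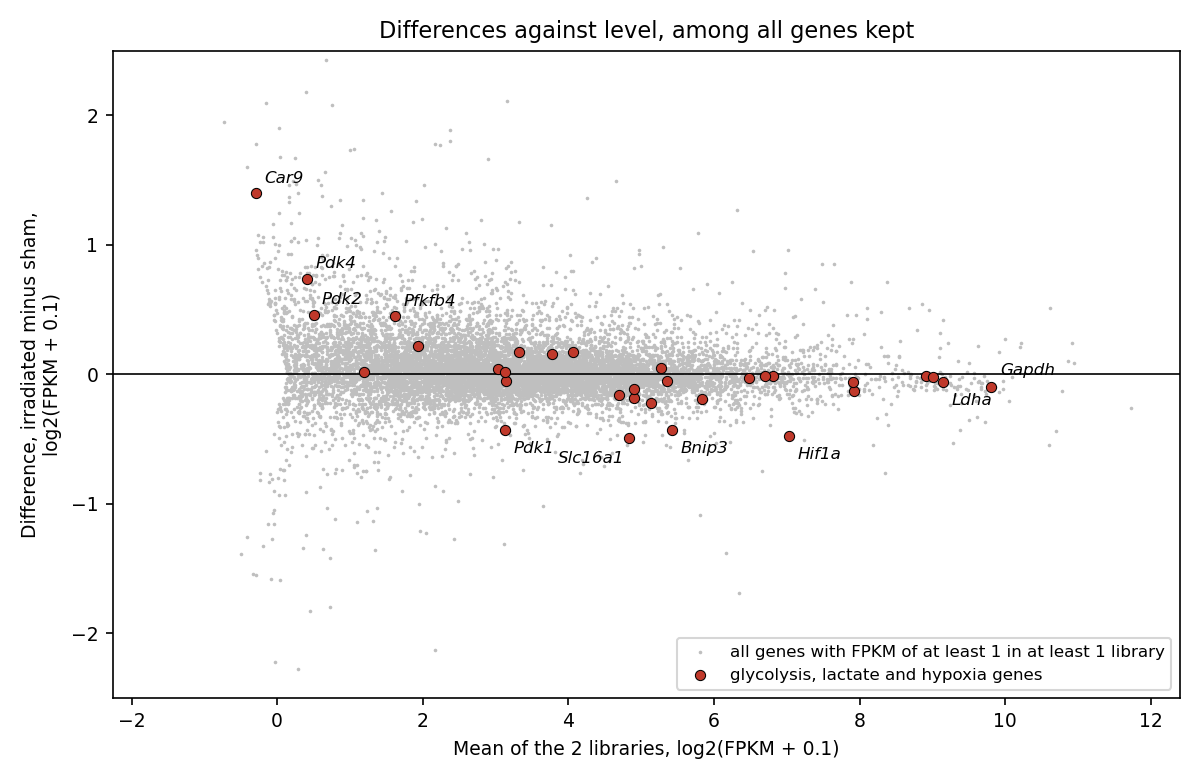
Difference against the mean level of the libraries, both on the log2(FPKM + 0.1) scale, for all 11253 genes kept (grey, 11 of them outside the vertical axis) and for the 32 members (red). Members that were higher, such as Car9, Pdk4, and Pdk2, lie at low levels where the grey cloud is wide, while Hif1a, Bnip3, Slc16a1, and Pdk1 lie below the main cloud, Hif1a at a high level and the others at middle levels.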

How the data were processed

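RNA sequencing of 2 libraries, 1 per condition, was analysed, with conditions taken from the sample labels and columns matched by sample title. The values deposited by the authors are log2(FPKM + 0.1) to 2 decimals, with gene coordinates and lengths. The submitters' processing notes name mm10, and the aligner, counter, and filters are not stated in the sources used here. All 34 genes overlapped the gene of the same name in GENCODE vM21 (GRCm38).

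FPKM was recovered by removing the logarithm and the 0.1. Library totals were those for which FPKM times length gave whole fragments (tolerance 0.12). All low genes checked met it, 2570 for the sham and 2518 for the irradiated library. The recovery was checked on simulated libraries. Fragment numbers of abundant genes are approximate, since rounding alone can shift a difference by up to 0.01. The filter kept genes at 1 FPKM or more in 1 or both libraries. Intervals are exact 95% binomial (Clopper-Pearson) intervals of fragment ratios per library total. They leave out the added 0.1, which understates the differences of low genes.

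Every member is named. Of each further list, the highest and lowest kept gene are named, and other genes are marked as chosen after their values were seen or stand beside a related member. The 34 genes and all lists were chosen with earlier results of these data known. Alternatives were other pseudocounts, filters, scalings, and limits. Scripts ran in Python 3.11.15 with SciPy 1.17.1, pandas 2.3.3, numpy 2.4.6, and matplotlib 3.10.9.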

Additional observations from a re-analysis of the deposited data

How the results depend on the processing

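No paired analysis was possible because there was 1 library per condition. Of 136 values of single members under another pseudocount or scaling, 132 stayed within their counting interval and none changed sign. With a pseudocount of 1, Pdk2 was 0.28 in place of 0.46. The 4 values outside were Car9 (0.67) and Pdk4 (0.44) with a pseudocount of 1, and Gapdh (-0.12) and Pkm (-0.04) after centring. The count of 2 members higher by at least 0.5 became 1 with a pseudocount of 1, 0 with a minimum FPKM of 5, and 4 with a limit of 0.25. The count of 0 lower by at least 0.5 became 2 after centring, 1 after rescaling without the 100 genes of highest mean FPKM, and 4 with a limit of 0.25. The count of 1 past a difference of 1 became 0 with a pseudocount of 1 and with a minimum FPKM of 5. The log2 ratio of the summed FPKM from hexokinase to pyruvate kinase, -0.0591, was -0.0389 without Gapdh and Eno1, -0.0734 after rescaling, and -0.0791 after centring. The median difference of the members, -0.025, was -0.015 with no filter, -0.0393 after rescaling, -0.045 after centring, and -0.055 with a minimum FPKM of 5, and the mean in its place was 0.0213. The medians of the 6 further lists stayed within the order-statistic range of each list, but some moved by over 1.5 times. That of other glycolysis genes, 0.135, was 0.01 with no filter and 0.08 with a minimum FPKM of 5. That of other pyruvate and lactate genes, 0.03, was 0.01 with no filter and after centring, and 0.0157 after rescaling. That of glycogen genes, -0.01, ran from -0.03 after centring to 0 with no filter, and that of the respiratory chain, 0.01, was -0.01 after centring and -0.00432 after rescaling. Depth limits Slc2a4 and Aldoc, with at most 47 fragments in a library.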

Other observations

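Genes of the pentose phosphate pathway, which draws on glucose 6-phosphate to make NADPH and ribose, gave 9 of 10 genes above the filter. Of these, 3 were higher and 6 lower, with a median difference of -0.07. Beside the counts of this list and the glycogen list below, 6020 of all 11253 genes kept were higher and 4947 lower. The NADPH-producing entry enzymes were lower, G6pdx with an FPKM of 86.1 in the sham and 73.9 in the irradiated library (difference -0.22, interval -0.27 to -0.17) and H6pd, its counterpart in the endoplasmic reticulum, with 83.8 and 72.9 (difference -0.20). Pgls, which acts next, was lowest at -0.23, and Taldo1, the transaldolase of the non-oxidative branch, was highest at 0.36 (77.6 and 99.6, interval 0.29 to 0.43). Pgd, which also makes NADPH, had 133.3 and 130.6 (difference -0.03, interval -0.07 to 0.01), within counting error. G6pdx, H6pd, and Pgd were named after their values were seen.

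Glycogen genes gave 14 of 17 above the filter, with 6 higher, 7 lower, 1 equal, and a median difference of -0.01. Gys1, the glycogen synthase outside liver, was lowest at -0.26 (25.01 and 20.9, interval -0.34 to -0.18), and Gyg, the primer of glycogen synthesis, was highest at 0.14. Among the respiratory chain genes, Cox4i2, a subunit form associated with low oxygen, was highest at 0.61 (54 and 96 fragments, interval 0.141 to 1.145). Cox6a2, the muscle and heart form, was lowest at -1.07 (26 and 13 fragments, interval -2.278 to -0.181). It passed the filter only through the sham library, where it was high. Of 7 skeletal muscle markers, 2 passed the filter, and Ckm, Myh2, and Myh4 had 0 fragments in both libraries. Acta1 had 0.5643 and 2.014 on 27 and 110 fragments, a difference of 1.67 (interval 1.215 to 2.497). Acta1 passed the filter only through the irradiated library, where it was high. Mylpf, on 23 and 21 fragments, differed by -0.29 (interval -1.251 to 0.593), within counting error. The part of muscle markers in the Cox6a2 value was not tested.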
